A study of Homo sapiens with 22 samples.

Results

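In 22Rv1, a human prostate cancer cell line, 377 of the 2540 H3K27me3 regions of the Ctrl cells lay where no H3K27me3 region was listed after overexpression of the linker histone H1-10, where no Pol2S5p region was listed in Ctrl, and where Pol2S5p was listed in at least 1 other library. The members were chosen by overlap of at least 1 bp. Each was a row of the Ctrl H3K27me3 peak list with no overlap in the H3K27me3 list of H1-10 OE cells and none in the Pol2S5p list of Ctrl, and with an overlap in the Pol2S5p list of H1-10 OE, siCtrl or siE2F3. These absences and presences define the members and are given below as description only. Together the members covered 252.8 kb of the 1.52 Mb in the Ctrl H3K27me3 list.

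Chromatin immunoprecipitation sequencing (ChIP-seq) was done in 22Rv1 cells for H3K27me3, for RNA polymerase II phosphorylated on serine 5 (Pol2S5p) and for the transcription factor E2F3. Each of the 3 targets was profiled in Ctrl cells and in H1-10 OE cells, and Pol2S5p also in cells labelled siCtrl and siE2F3. Per the sample labels, Ctrl and H1-10 OE are given as treatments, and siCtrl and siE2F3 carry no H1-10 genotype. The names of the siCtrl and siE2F3 lists and of their peaks do carry a mark of H1-10 overexpression, and the peaks of the E2F3 Ctrl list carry "EV". By these names, all 3 Pol2S5p lists that chose the members come from cells with H1-10 overexpression. Ctrl is then the only Pol2S5p list without it. Below, H1-10 OE stands for the library with no siRNA in its label. Every group was 1 library, so nothing below could be checked against a replicate, and p-values are not given. How overexpression was driven, and whether a line was a single clone, is not given in the sources used here. The Ctrl and H1-10 OE lists of H3K27me3 and Pol2S5p share 1 folder label in their peak names, and the E2F3, siCtrl and siE2F3 lists share another, so comparisons of siCtrl or siE2F3 with Ctrl cross that label.

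H3K27me3, trimethylation of lysine 27 of histone H3, is laid down by Polycomb repressive complex PRC2 and marks silenced genes, above all CpG-rich promoters of developmental transcription factors. Serine 5 of the polymerase tail is phosphorylated at initiation, so Pol2S5p marks polymerase near start sites, including polymerase that has paused there. H1-10 is a linker histone, a protein that binds the nucleosome where DNA enters and leaves. E2F3 is a factor of the E2F family, best known for driving genes of the cell cycle.

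The promoters of 4 genes at or beside member regions are shown because CpG density is the sequence feature for which Polycomb targets are known. The files use hg19, for which no genome was at hand, so these are RefSeq promoters of build GRCh38.p14, and whether these bases lie inside a member region was not determined. Each sequence is the 250 bases before the annotated start on the gene's strand, with every CpG in capitals. UNCX and GBX2 are homeobox factors, FOXC1 is a forkhead factor, and AUTS2 encodes a protein of neural development that associates with Polycomb complexes. The coordinates are chr7:1232622-1232871 on the plus strand for UNCX, chr6:1609665-1609914 on the plus strand for FOXC1, chr7:69598225-69598474 on the plus strand for AUTS2 and chr2:236168387-236168636 on the minus strand for GBX2.
UNCX: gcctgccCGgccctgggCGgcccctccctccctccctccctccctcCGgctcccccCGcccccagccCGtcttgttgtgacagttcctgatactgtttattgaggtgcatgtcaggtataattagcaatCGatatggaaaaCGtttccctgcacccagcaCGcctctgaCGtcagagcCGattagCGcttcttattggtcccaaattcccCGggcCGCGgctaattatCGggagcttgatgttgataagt
FOXC1: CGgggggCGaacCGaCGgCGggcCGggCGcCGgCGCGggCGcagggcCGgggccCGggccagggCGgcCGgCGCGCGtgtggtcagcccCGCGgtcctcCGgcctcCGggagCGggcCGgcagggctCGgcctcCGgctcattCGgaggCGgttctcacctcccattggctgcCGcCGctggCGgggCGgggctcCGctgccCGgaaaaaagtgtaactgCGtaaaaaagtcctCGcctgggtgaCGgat
AUTS2: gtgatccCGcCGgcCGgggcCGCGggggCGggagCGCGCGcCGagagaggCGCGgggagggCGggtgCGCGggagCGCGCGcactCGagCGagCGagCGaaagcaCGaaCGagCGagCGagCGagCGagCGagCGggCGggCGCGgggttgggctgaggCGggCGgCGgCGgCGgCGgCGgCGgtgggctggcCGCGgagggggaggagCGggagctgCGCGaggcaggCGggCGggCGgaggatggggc
GBX2: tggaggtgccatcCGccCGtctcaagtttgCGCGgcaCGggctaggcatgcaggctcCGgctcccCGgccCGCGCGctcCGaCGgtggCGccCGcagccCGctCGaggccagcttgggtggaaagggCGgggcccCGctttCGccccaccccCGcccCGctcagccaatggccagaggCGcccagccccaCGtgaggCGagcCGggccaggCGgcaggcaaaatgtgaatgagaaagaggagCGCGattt
The UNCX sequence held 15 CpG, which 59.0% of the 35116 RefSeq promoters match or fall below. FOXC1 held 37 (96.7% match or fall below), AUTS2 49 (99.9%) and GBX2 28 (85.9%). The median over all these promoters was 11 CpG and the 90th percentile 31. FOXC1 and AUTS2 therefore lay above the 90th percentile, GBX2 below it and UNCX nearer the median. The 4 genes were picked after their regions were seen and stand for themselves only.

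Gene names here are those known to lie at or beside each region and are given as background. Only their chromosome (16 of 16 names) and their order along it (11 of 11 pairs) were checked against RefSeq, and no count of genes was made.

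Among the 377 members, Pol2S5p was listed in siCtrl at 356 (94.4%, 95% Wilson interval 91.6 to 96.3), in siE2F3 at 295 (78.2%, 73.8 to 82.1) and in H1-10 OE at 217 (57.6%, 52.5 to 62.4). Of all 2540 Ctrl H3K27me3 regions, 16.6% overlapped Pol2S5p of siCtrl, 13.1% that of siE2F3, 9.92% that of H1-10 OE and 0.748% that of Ctrl. The members' shares are high because the rule asked for such an overlap, and nothing is read from them. The intervals here and below cover counting error only, and neighbouring regions are not independent. List length also differed. The siCtrl and siE2F3 lists held 83650 and 83067 regions (102.5 and 90.7 Mb), against 40626 (39.1 Mb) for H1-10 OE and 35493 (43.1 Mb) for Ctrl. The Ctrl list thus covered more sequence than the H1-10 OE list, while the siRNA lists covered more than either. Read depth is unknown, so the lists could not be scaled to it.

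More than any other combination, members carried Pol2S5p in all 3 lists. This held for 197 members (52.3%). The pair siCtrl and siE2F3 held 81, siCtrl alone 64, siE2F3 alone 15, and the pair H1-10 OE and siCtrl 14. H1-10 OE alone accounted for 4 and H1-10 OE with siE2F3 for 2. A member with Pol2S5p in H1-10 OE and in neither siRNA library was therefore rare.

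**Figure D1:**
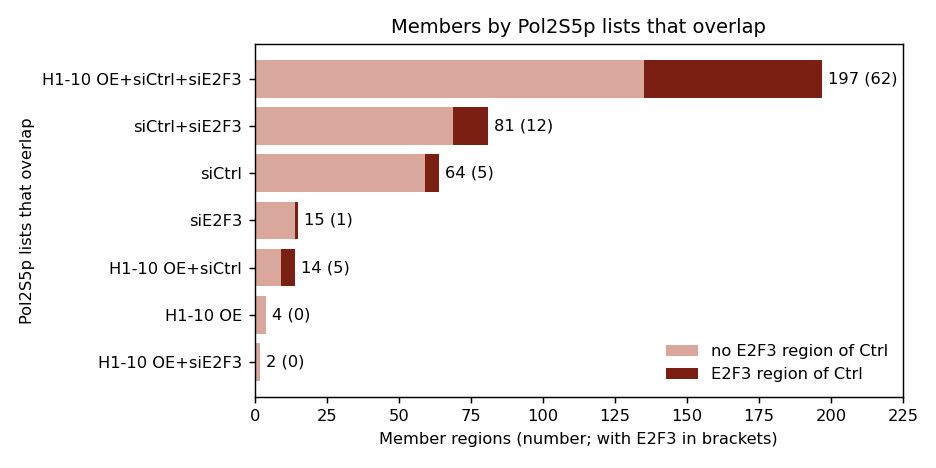
Number of member regions (bar length) for each combination of the 3 Pol2S5p lists that chose them, split by whether the region also overlapped an E2F3 region of Ctrl. All 3 lists together held 197 of the 377 members, and 62 of those 197 overlapped E2F3.

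The lists were also compared without choosing on all 3 of them. Of the 1958 Ctrl H3K27me3 regions absent from H3K27me3 of H1-10 OE and from Pol2S5p of Ctrl, 217 had Pol2S5p in H1-10 OE and 1741 did not. Pol2S5p of siCtrl lay at 211 of the 217 (97.2%) and at 145 of the 1741 (8.33%), a difference of 88.9 points (Newcombe interval 85.5 to 90.8). Pol2S5p of siE2F3 lay at 199 (91.7%) and at 96 (5.51%), a difference of 86.2 points (81.6 to 89.3). Regions with Pol2S5p in the H1-10 OE library thus nearly all had it in each siRNA library too. The siRNA lists were longer than that of H1-10 OE. The share of all Pol2S5p regions of H1-10 OE that overlap them was not taken. Whether this is particular to these H3K27me3 regions was therefore not tested. The 3 libraries are single libraries of 1 cell line made with 1 antibody, so the same places being listed in each does not make the 3 lists replicates.

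Kept regions, the 569 that overlapped H3K27me3 of H1-10 OE, carried Pol2S5p of H1-10 OE, siCtrl and siE2F3 less often than the 1971 that did not. For H1-10 OE the shares were 4.92% of kept and 11.4% of absent regions, for siCtrl 10.02% and 18.5%, and for siE2F3 5.45% and 15.4%. In Ctrl the order was the other way, at 1.05% and 0.66%, which were 6 and 13 regions. Absence from the H1-10 OE list of H3K27me3 was itself the common state, at 77.6% of the 2540 regions, although that list was the longer one (18395 regions, 10.1 Mb).

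The Pol2S5p regions at members were strong for regions that Ctrl lacked. Ranked by -log10 p within its list, where 100 is the strongest, the overlapping region had a median percentile of 65.0 in H1-10 OE (quartiles 51.8 and 78.9), 82.6 in siCtrl (70.6 and 87.7) and 83.3 in siE2F3 (67.7 and 88.6). Regions with no overlap in Pol2S5p of Ctrl made up 42.8% of the H1-10 OE list, 72.5% of the siCtrl list and 71.6% of the siE2F3 list, and their median percentile was 31.6, 39.2 and 39.3. Those that did overlap Ctrl had medians of 68.3, 84.5 and 83.9. The members' Pol2S5p regions therefore ranked near the regions shared with Ctrl. Wider regions have more room to overlap a member, and the ranks were not corrected for width. The median width of the overlapping region was 1003 bp in H1-10 OE, against 428 bp for all regions of that list that Ctrl lacked and 1012 bp for those it shared.

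**Figure D2:**
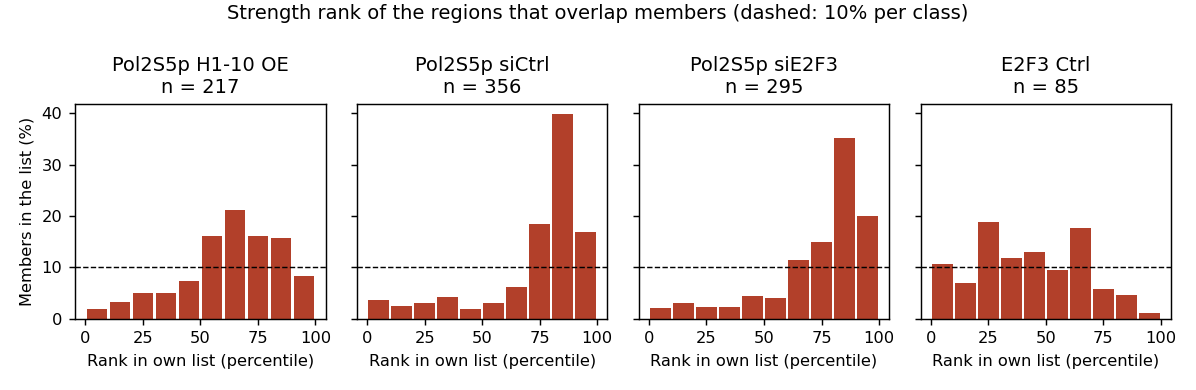
Share of the members in each list (vertical axis, percent) by strength class of the overlapping region within that list (horizontal axis, 10 classes of equal size from weakest to strongest, by -log10 p), for the 3 Pol2S5p lists and E2F3 of Ctrl; the dashed line is 10% per class. For siCtrl and siE2F3 the class from 80 to 90 held most members, 142 of 356 and 104 of 295, while for H1-10 OE it was the class from 60 to 70, with 46 of 217, and E2F3 has no such peak among its strongest classes.

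Fold enrichment is that over the authors' background. The median fold at members was 9.70 in siCtrl, 7.88 in H1-10 OE and 7.69 in siE2F3, which are values within each list and not on a common scale between them. The overlapping region was in its list's strongest 10% at 60 of 356 members in siCtrl (16.9%) and 59 of 295 in siE2F3 (20%). In H1-10 OE this held for 18 of 217 (8.29%), below the 10% that falls there by definition. Members that share a region are each counted. Members often shared a region: the 356 in siCtrl lay on 299 regions, the 295 in siE2F3 on 248 and the 217 in H1-10 OE on 189.

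Where a list had Pol2S5p at a member, it mostly covered the H3K27me3 region itself rather than only its edge. The values here are over the 356 members with Pol2S5p in siCtrl, 295 in siE2F3 and 217 in H1-10 OE, not over all 377. The median share of a member covered was 88.0% in siCtrl, 85.9% in siE2F3 and 65.5% in H1-10 OE. Full coverage was reached at 159, 130 and 63 members. The H3K27me3 summit of Ctrl lay inside the Pol2S5p region at 275 members in siCtrl (77.2%), 220 in siE2F3 (74.6%) and 137 in H1-10 OE (63.1%). The gap between both summits had a median of 569.5 bp, 489 bp and 431 bp.

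At each member, the overlapping Pol2S5p region with the highest -log10 q was taken from each list. At 352 of the 377 members (93.4%), none of these reached a Pol2S5p region of Ctrl. At the other 25 (6.63%) at least 1 did, so that region also covered a place listed in Ctrl beside the member. Over the whole lists, 42.8% of H1-10 OE, 72.5% of siCtrl and 71.6% of siE2F3 regions had no overlap in Ctrl. The rule bars Pol2S5p of Ctrl at the member itself, so the count is given as description. The median distance from a member to the nearest Pol2S5p region of Ctrl was 84.5 kb (quartiles 25.3 and 186).

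The members with the strongest Pol2S5p were among those 25. At FSCN1, which encodes an actin-bundling protein, the member chr7:5633132-5634868 (H3K27me3 fold 5.57, -log10 q 6.96) was fully covered in all 3 lists, with Pol2S5p fold 55.4 in H1-10 OE, 58.8 in siCtrl and 43.6 in siE2F3. The Pol2S5p region was 2.79 kb wide in H1-10 OE, 9.66 kb in siCtrl and 7.57 kb in siE2F3. In Ctrl, a Pol2S5p region of 0.656 kb with fold 22.5 ended 0.3 kb from the member. Pol2S5p was thus listed beside the H3K27me3 region in Ctrl and over it in the other 3 libraries.

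Upstream of FOXC1, 3 members lay within chr6:1604942-1609325. The second of them, chr6:1606605-1607332 (H3K27me3 fold 6.85), and the third, chr6:1608661-1609325 (4.12), shared a Pol2S5p region of 11.7 kb with fold 45.2 in H1-10 OE. The first, chr6:1604942-1605996 (3.74), had a separate Pol2S5p region there with fold 7.89. In siCtrl and siE2F3 single regions of 7.08 kb (fold 29.2) and 11.7 kb (fold 44.4) overlapped all 3. The Ctrl list had a Pol2S5p region of 0.468 kb with fold 4.79, which lay 0.634 kb from the third member.

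The same arrangement was seen at IGF2BP1, an RNA-binding protein of fetal tissues. Its 3 members within chr17:47072383-47076161 were spanned whole by Pol2S5p in all 3 lists (3.78 kb each), and a Ctrl region of 0.647 kb with fold 7.06 lay between the members. At the first, chr17:47072383-47072688 (H3K27me3 fold 4.42), Pol2S5p fold was 19.9 in H1-10 OE, 24.7 in siCtrl and 32.0 in siE2F3. Another pair lay at chr1:231174972-231175444 and chr1:231176704-231177034, where 1 Pol2S5p region of H1-10 OE (2.46 kb, fold 30.5) covered both. The Ctrl region there was 0.341 kb wide, had fold 6.09 and lay 0.418 kb from one and 0.5 kb from the other.

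Of the 10 members with the highest -log10 q of H3K27me3, 1 had Pol2S5p in all 3 lists, 5 in 2 lists and 4 in 1 list. Around UNCX, chr7:1263465-1268263, the longest member at 4799 bp, had the highest -log10 q of H3K27me3 (16.7, fold 9.15). Pol2S5p was listed there in siE2F3 only, with fold 4.63 over 5.42% of the region. Its neighbour chr7:1268999-1269613 (H3K27me3 fold 9.24) had Pol2S5p fold 4.23 in siCtrl and 3.40 in siE2F3. On the other side, chr7:1276636-1278796 (fold 5.94) had Pol2S5p in all 3 lists, with fold 9.05 in H1-10 OE, 9.45 in siCtrl and 6.42 in siE2F3. H3K27me3 of H1-10 OE was not far here: 0.742 kb was listed between the 3 members, 4.65, 3.30 and 2.99 kb from each. The Ctrl list held 4 H3K27me3 regions (13.3 kb) over this run, of which the 3 members made up 7.58 kb. The region that was not a member lay between them and was kept in H1-10 OE. At 5756 bp it was the widest of the Ctrl list.

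At SOX8, a factor of the SOX family, the members chr16:1029835-1031633 and chr16:1031934-1034351 (H3K27me3 fold 8.54 and 7.77) shared Pol2S5p regions of fold 5.83 in H1-10 OE and 7.24 in siCtrl, and had none in siE2F3. At CYS1, which encodes a protein of the primary cilium, chr2:10219573-10221287 (fold 6.83) likewise had Pol2S5p in H1-10 OE (6.36) and siCtrl (7.47) and none in siE2F3. The homeobox gene HMX3 had the same combination at chr10:124894040-124895100 (H3K27me3 fold 8.07), with 4.79 and 7.18. E2F3 of Ctrl overlapped all 4 of these members, with fold 4.01 at both SOX8 members, 5.27 at CYS1 and 6.39 at HMX3. The absence from siE2F3 did not extend to the next member beside HMX3, chr10:124895461-124896272. That member lay on the same siCtrl region and had Pol2S5p with fold 5.97 in siE2F3. Its siE2F3 region began at chr10:124895191, just past the end of the first HMX3 member. Upstream of EN2, an engrailed homeobox factor, chr7:155245675-155249063 (fold 7.95) had Pol2S5p in siCtrl only. This was an 8.14 kb region of fold 24.8 that covered 13.4% of the member. The locus as a whole was not limited to siCtrl. The next member there, chr7:155252288-155253142, lay on the same siCtrl region and had Pol2S5p in all 3 lists. From the start of the first EN2 member to the end of the second, H1-10 OE listed 3.36 kb of Pol2S5p, siE2F3 3.94 kb and siCtrl 4.53 kb.

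The E2F3 lists were not used to choose the members, but Pol2S5p was. Over the whole list, 70.6% of the E2F3 regions of Ctrl overlapped Pol2S5p of siCtrl. In Ctrl, an E2F3 region overlapped 85 of the 377 members (22.5%, 18.6 to 27.03). All 2540 Ctrl H3K27me3 regions gave 8.27%. The 1581 silent regions, absent from H3K27me3 of H1-10 OE like the members but without Pol2S5p in any of the 4 lists, gave 40 (2.53%, 1.86 to 3.43). The difference was 20.02 points (16.0 to 24.5). Kept regions gave 81 of 569 (14.2%, 11.6 to 17.3), 8.31 points below the members (3.30 to 13.5). E2F3 therefore lay at members more often than at silent or kept regions. Silent regions lack Pol2S5p by definition, and 10.02% of kept regions had it in siCtrl. Neither difference can thus be told apart from the choice on Pol2S5p. Kept regions with Pol2S5p were not compared on their own. The 13 regions that met the rule on H3K27me3 but had Pol2S5p in Ctrl gave 4 (30.8%, 12.7 to 57.6), an interval that takes in the members' share. The E2F3 overlap is thus not shown to set members apart from regions with Pol2S5p in Ctrl.

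The difference was wider around the regions than on them. An E2F3 region of Ctrl lay within 1 kb of 206 members (54.6%), 151 silent regions (9.55%) and 182 kept regions (32.0%). Members exceeded silent regions by 45.1 points at 1 kb (39.8 to 50.2) and by 45.2 points at 5 kb (39.9 to 50.2). The median distance to the nearest E2F3 region of Ctrl was 0.593 kb for members, 22.1 kb for silent regions and 12.6 kb for kept regions. These distances carry the same limit, since the rule asked for Pol2S5p at members.

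**Figure D3:**
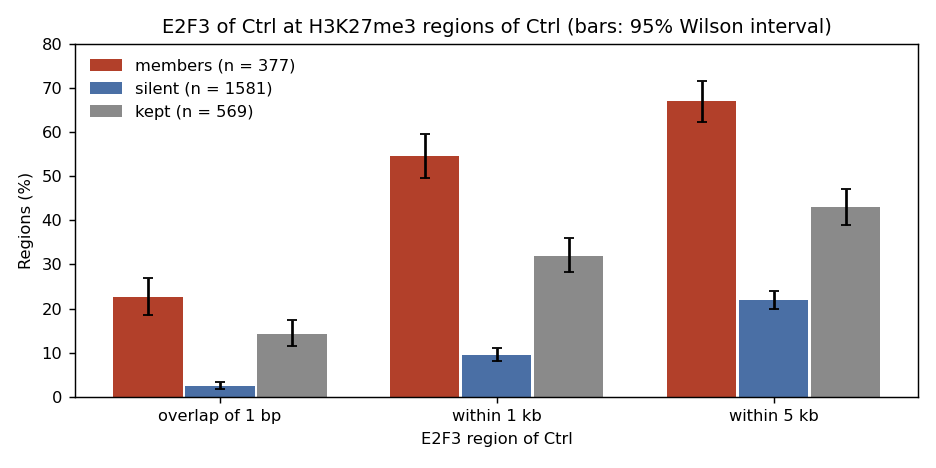
Share of H3K27me3 regions of Ctrl that overlapped an E2F3 region of Ctrl, with 95% Wilson intervals that cover counting error only. Bars give members, silent and kept regions for an overlap of 1 bp, within 1 kb and within 5 kb, and members stand highest at each distance, at 22.5%, 54.6% and 67.1%.

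The E2F3 difference was also taken within classes of width. Members were wider (median 527 bp, quartiles 386 and 781) than silent regions (437 bp, 345 and 597), and wide regions have more room for an overlap. The 1958 regions were therefore split into 4 width classes. E2F3 overlapped 16.2% of members and 2.37% of silent regions of 293 to 350 bp, 20.8% and 1.44% of those of 350 to 448 bp, 21.8% and 1.54% of those of 449 to 632 bp, and 27.2% and 5.10% of those of 633 to 5590 bp. The difference in points was 13.8 (6.64 to 24.4), 19.4 (11.4 to 30.2), 20.2 (13.1 to 29.3) and 22.1 (14.8 to 30.3). Members exceeded silent regions in each of the 4 classes, where silent regions still lack Pol2S5p by definition.

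Within the members, E2F3 was more frequent where Pol2S5p was listed in more libraries. It overlapped 6 of 83 members with Pol2S5p in 1 list (7.23%, 3.36 to 14.9), 17 of 97 with 2 lists (17.5%, 11.2 to 26.3) and 62 of 197 with all 3 (31.5%, 25.4 to 38.3). Members with all 3 exceeded the others by 18.7 points (10.4 to 26.6). Among the single combinations, siCtrl alone had E2F3 at 5 of 64 (7.81%), siCtrl with siE2F3 at 12 of 81 (14.8%) and H1-10 OE with siCtrl at 5 of 14 (35.7%). Neither the 4 members with H1-10 OE alone nor the 2 with H1-10 OE and siE2F3 had any. This split uses the same 3 lists that chose the members. E2F3 regions of Ctrl overlapped these lists at 70.6% (siCtrl), 67.8% (siE2F3) and 64.6% (H1-10 OE) over the whole E2F3 list. The split is therefore given as description.

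The E2F3 regions at members were of middling strength. The 85 overlaps involved 78 E2F3 regions, with a median fold of 8.59, against 8.98 over the whole list. The percentile of -log10 p, taken over the 85 members, had a median of 44.2, and 1 member had E2F3 among the strongest 10%. Of the 78, 77 overlapped Pol2S5p of siCtrl (98.7%), 70 that of siE2F3 (89.7%) and 64 that of H1-10 OE (82.1%). Over all 22988 E2F3 regions of Ctrl these shares were 70.6%, 67.8% and 64.6%. Only 4 of the 78 (5.13%) overlapped Pol2S5p of Ctrl, against 68.0% of the list (32% of the list had no such overlap). The rule requires Pol2S5p at the member and bars that of Ctrl, so these shares are description.

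By -log10 q of E2F3 in Ctrl, the member ranked 1 lay on chromosome 8, with E2F3 fold 25.8 and Pol2S5p fold 10.1 in H1-10 OE, 12.6 in siCtrl and 8.83 in siE2F3. The next 4 lay at AUTS2, GBX2 and RGMA. At AUTS2, chr7:69061786-69063161 (H3K27me3 fold 6.70, -log10 q 10.1) had E2F3 with fold 24.9 in Ctrl. Pol2S5p there had fold 7.96 in H1-10 OE, 11.5 in siCtrl and 7.50 in siE2F3, and the nearest Pol2S5p region of Ctrl was 2232 kb away. The AUTS2 member thus had no listed polymerase of Ctrl nearby, where the FSCN1 member had it next to it. At GBX2, chr2:237077333-237077770 (fold 5.40) had E2F3 with fold 25.2 and Pol2S5p with fold 10.7, 24.4 and 14.5 in H1-10 OE, siCtrl and siE2F3. At RGMA, which encodes a guidance molecule of axons, chr15:93615740-93616160 and chr15:93616415-93617218 (H3K27me3 fold 5.75 and 6.01) shared an E2F3 region of fold 25.9. Pol2S5p over that pair had fold 12.5 in H1-10 OE, 10.3 in siCtrl and 9.96 in siE2F3, and the nearest of Ctrl was 41.8 kb from the first member.

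After H1-10 overexpression E2F3 was listed at 1 member, chr17:46723570-46724067, with fold 3.40. The E2F3 list of H1-10 OE was short, with 4296 regions (1.95 Mb) against 22988 (15.6 Mb) in Ctrl, and 97.4% of the Ctrl regions had no overlap in it. It overlapped 0.0394% of all 2540 Ctrl H3K27me3 regions, none of them silent or kept, and the members' excess over silent regions was 0.27 points (-0.06 to 1.49), an interval that includes 0. Of the 78 E2F3 regions of Ctrl at members, 0 overlapped it, against 2.59% of the whole list. The 1 member had Pol2S5p with fold 20.6 in H1-10 OE, 13.2 in siCtrl and 15.7 in siE2F3.

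Between both siRNA libraries, 78 of the 356 members with Pol2S5p in siCtrl lacked it in siE2F3 (21.9%, 17.9 to 26.5). Over the whole siCtrl list 30.6% of regions had no overlap in siE2F3. Conversely, 17 of the 295 members with Pol2S5p in siE2F3 lacked it in siCtrl (5.76%, 3.63 to 9.03), against 22.9% of the siE2F3 list. These are members and regions counted in different units, set side by side for scale. Of the siCtrl members with E2F3 in Ctrl, 10 of 84 (11.9%) lacked Pol2S5p in siE2F3, and of those without E2F3, 68 of 272 (25%) did. The difference was -13.1 points (-20.7 to -3.22), so absence from the siE2F3 list was less frequent at members with E2F3. Both lists helped choose the members, and this split is given as description.

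As H3K27me3 regions, members stood above silent regions in the Ctrl list by their medians, but the strongest regions were not members. The highest -log10 q was 16.7 in members, 53.2 in silent and 28.5 in kept regions. The members' median fold was 5.16 against 4.72 in silent and 4.98 in kept regions, and their median -log10 q was 4.52 against 3.54 and 3.77. Among members 143 (37.9%) had a -log10 q of 5 or more, as had 338 silent regions (21.4%) and 196 kept regions (34.4%). In width members were close to kept regions, whose median was 523 bp. Members made up 13.9% of the narrowest width class of the 1958 regions, 14.7% and 20.6% of the middle ones and 27.8% of the widest. A wider region has more room for the overlap that the rule asked for, so these shares are description.

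Members lay far from H3K27me3 of H1-10 OE, the list the rule keeps off the region itself. The median distance was 277 kb (quartiles 57.6 and 779), against 42.6 kb for silent regions. Within 5 kb there was such a region for 33 members (8.75%) and 303 silent regions (19.2%), a difference of -10.4 points (-13.6 to -6.63). Pol2S5p of Ctrl within 5 kb was listed for 33 members (8.75%) and 55 silent regions (3.48%). At 1 kb that contrast was 19 members (5.04%) against 12 silent regions (0.759%), or 4.28 points (2.40 to 6.997). The order turned farther out, with 59.4% of members and 65.8% of silent regions within 100 kb of such a region and medians of 84.5 and 69.4 kb. Both lists were barred at the member itself, for members and silent regions alike.

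**Figure D4:**
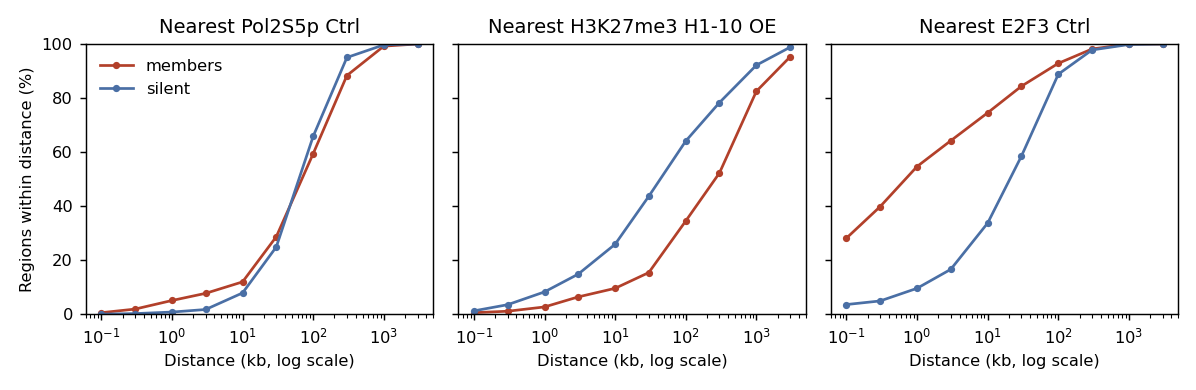
Cumulative share of members and silent regions (vertical axis, percent) with a region of Pol2S5p Ctrl, H3K27me3 H1-10 OE or E2F3 Ctrl within a given distance (horizontal axis, kb, log scale). For E2F3 of Ctrl, members reached 54.6% at 1 kb and silent regions 9.55%, while for H3K27me3 of H1-10 OE the silent regions stand higher.

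Across chromosomes, members were spread otherwise than silent regions. Chromosome 7 held 29 members (7.69%) but 338 silent regions (21.4%), a difference of -13.7 points (-16.8 to -9.99). Chromosome 17 held 30 members (7.96% against 3.80%) and chromosome 2 held 27 (7.16% against 2.66%), differences of 4.16 (1.61 to 7.45) and 4.51 points (2.13 to 7.64). Chromosome 16 held the most members, 39 (10.3%), against 8.48% of silent regions. That difference was 1.87 points (-1.19 to 5.58), an interval that includes 0. Runs of 12, 8 and 7 of these members, described below, lay at CACNA1H and FOXF1. Copy number of the line was not examined.

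Members clustered along the genome, which also means that they are not independent. Joined where the gap was at most 10 kb, the 377 formed 259 runs, of which 190 held 1 member and 69 held 2 or more. Those 69 held 187 members (49.6%). Runs of 5 or more numbered 6.

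The run with the most members, 12, was chr16:1201620-1237705 at CACNA1H, which encodes the pore subunit of a T-type calcium channel. Over its 36.1 kb, members covered 12.5 kb, Pol2S5p of siCtrl 11.5 kb, that of siE2F3 8.99 kb and that of H1-10 OE 0.821 kb. E2F3 of Ctrl covered 1.28 kb. A second run at the same gene, chr16:1255249-1273157 with 8 members, had 7.53 kb of Pol2S5p in siCtrl, 7.65 kb in siE2F3 and 0.304 kb in H1-10 OE, and no E2F3. At CACNA1H, both siRNA libraries thus had several times the Pol2S5p length of H1-10 OE.

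The forkhead genes differed from this. At FOXF2, the run chr6:1379741-1394408 held 8 members, 6 of them with Pol2S5p in all 3 lists. Pol2S5p covered 6.08 kb of its 14.7 kb in H1-10 OE, 9.92 kb in siCtrl and 8.998 kb in siE2F3. At FOXF1, chr16:86530831-86549694 held 7 members over 18.9 kb, with 4.53, 7.56 and 5.88 kb of Pol2S5p in the same order. E2F3 of Ctrl covered 0.493 kb at FOXF2 and 0.619 kb at FOXF1. All 3 Pol2S5p lists thus had kilobases of signal over both runs.

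Neither H3K27me3 of H1-10 OE nor Pol2S5p of Ctrl had any base listed inside these 4 runs (0 kb each), gaps between members included. The rule bars both only at the members. Among shorter runs, chr9:129372336-129381994 at LMX1B, a LIM homeobox factor, held 5 members with 1.18 kb of Pol2S5p in H1-10 OE, 3.92 kb in siCtrl and 3.26 kb in siE2F3. At GBX2, 4 members lay within chr2:237075147-237088573, with 2.74, 6.92 and 4.99 kb in that order and 2.47 kb of E2F3. These last 2 runs were picked after their values were seen.

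**Figure D5:**
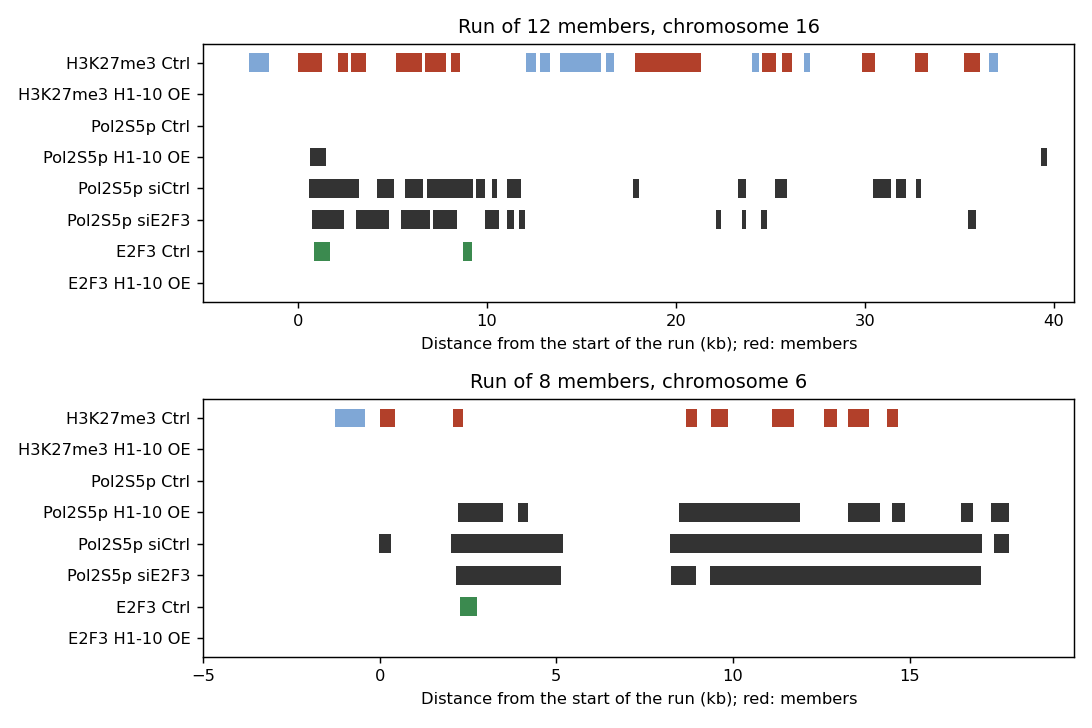
Regions of the 8 lists (rows) along the CACNA1H run of 12 members (upper panel) and the FOXF2 run of 8 members (lower panel), with distance from the run's start in kb on the horizontal axis and 5 kb of flank; members are red and other Ctrl H3K27me3 regions blue. The rows of H3K27me3 H1-10 OE and Pol2S5p Ctrl are empty in both panels, and Pol2S5p of H1-10 OE covers 0.821 kb of the upper run against 6.08 kb of the lower.

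Few members lay near the edge of the Pol2S5p overlap that the rule asked for. Just inside were chr21:34399580-34400321, chr17:35290676-35291376 and chr19:11591481-11592322, whose largest overlap with Pol2S5p was 1, 4 and 12 bp. Just outside were chr16:1153510-1154745, chr10:119296589-119296896 and chr19:35644159-35644544, which lay 5, 9 and 12 bp from Pol2S5p. Under 50 bp of Pol2S5p was found at 8 members (2.12%), and 146 silent regions (9.23%) lay within 1 kb of it. For the absences in the rule, 19 members (5.04%) lay within 1 kb of Pol2S5p of Ctrl. Likewise 10 (2.65%) lay within 1 kb of H3K27me3 of H1-10 OE.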

How the data were processed

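Peak lists of 8 of the 22 samples were used, 1 library per group; the other 14 were not analysed here. The submitters' processing notes name FastQC, fastp, Bowtie and build hg19; for the peak caller, its threshold, its inputs and all versions, nothing is given in the sources used here. Each deposited list gives the authors' peak score, fold enrichment (a ratio to their background), -log10 p and -log10 q; the scores were not used. Rows were intersected at 1 bp with Python 3.11.15, numpy 2.4.6 and pandas 2.3.3, and the code was checked on planted lists and with bedtools 2.31.1. Shares carry 95% Wilson and differences Newcombe intervals. Coordinates are 1-based.

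Named regions were the 10 members with the highest -log10 q of H3K27me3, the 5 with the highest -log10 q in each Pol2S5p or E2F3 list, the 5 longest, the 5 runs with the most members and those at the edge of the rule; not all are described. Members and lists were chosen with earlier results of these data known. No hg19 genome or annotation was used here, so promoter shares, GC content, gene lists and cell type markers, including those of prostate cells, were not analysed.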

Additional observations from a re-analysis of the deposited data

How the results depend on the processing

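Of 37 alternative values for the results other than E2F3 of H1-10 OE, 29 stayed close to the main value, 8 moved and 0 reversed. These include the number of members, for which 7 stayed close and 2 moved. That number is a count, which cannot reverse and could only fall under these settings. For E2F3 of H1-10 OE the main interval and those of all 8 alternatives include 0, so there is no direction to keep, and the difference was 0 where H3K27me3 regions needed a -log10 q of 5 or more. The number of members, 377, was 143 with H3K27me3 regions of -log10 q of at least 5 only and 217 with Pol2S5p of H1-10 OE alone, and otherwise 292 to 356. The E2F3 difference of 20.02 points was 8.31 against kept in place of silent regions, and otherwise 18.6 to 24.4. The difference in median width, 90 bp, was 53.5 bp where Pol2S5p had to cover 50% of the region, 58.5 bp with H3K27me3 of -log10 q of at least 5, 4 bp against kept regions and 323.5 bp with regions joined into loci and their widths summed. The siCtrl difference of 88.9 points was 84.9 with H3K27me3 of -log10 q of at least 5. With each of the 4 Pol2S5p lists held to its strongest 35493 peaks there were 319 members, and the E2F3 difference was 23.5 points. No paired analysis was possible because each group has 1 library. Alternatives for promoter share and GC content were not run, for want of an hg19 annotation and genome. Depth is unknown, so absence from a list may be a matter of its threshold, which was not tested.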
